A study of Mus musculus with 4 samples.

Results

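Runx1, Runx2 and Runx3 encode the transcription factors of the Runx family, and Cbfb encodes the partner protein that all of them bind. Phospho-CREB occupancy at these 4 genes was described in the mouse pre-osteoblast line MC3T3-E1, from chromatin immunoprecipitation and sequencing with an antibody to CREB phosphorylated at serine 133. The cells had received DMSO vehicle for 1 h or 100 nM forskolin for 1 h, with 2 libraries per treatment that the labels call biological replicates. Both treatments used the same line in the same medium, so every value is from cultures of 1 cell line. Forskolin activates adenylyl cyclase directly and bypasses the hormone receptors that do so in bone cells. The peaks of the 4 libraries were merged where they shared 1 bp or more, which gave 28335 regions on build mm9. A region was taken for a gene if it lay inside the gene or if its centre was within 100 kb of one of its transcription start sites (TSS), and 51 of the 28335 regions met this rule: 19 for Runx1, 11 for Runx2, 13 for Runx3 and 8 for Cbfb. The regions nearest to the edge of the window were at 99910 bp for Runx3 inside it and at 103186 bp for Runx1, a region of both forskolin libraries alone, outside it.

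Runx proteins bind DNA through the Runt domain, and Cbfb, which does not contact the DNA itself, raises the affinity of that binding. Runx2 is required for osteoblasts to form, Runx1 for definitive blood stem cells, and Runx3 acts in T cells and sensory neurons. Each Runx gene has a distal promoter, P1, and a proximal promoter, P2, whose transcripts differ at the N terminus of the protein. In osteoblasts, parathyroid hormone raises cAMP, protein kinase A then phosphorylates CREB, and CREB binds the cAMP response element (CRE).

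Each of the 3 Runx genes had a phospho-CREB region within 1 kb of a start of its distal promoter. Each of these regions held a tandem pair of RUNX letters. The search was for the letters TGTGGT on either strand, read ACCACA on the other, with both copies on 1 strand and their starts 8 bases apart. It was chosen after the regions had been seen. The windows below are read on the strand of the gene, with build mm9 coordinates, and capitals mark the 2 copies. They are shown because the same pair stands at the distal promoter of all 3 genes.
Runx1 P1, chr16:92826270-92826299, minus strand: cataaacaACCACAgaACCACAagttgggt
Runx2 P1, chr17:44951532-44951561, minus strand: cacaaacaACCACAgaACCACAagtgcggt
Runx3 P1, chr4:134676418-134676447, plus strand: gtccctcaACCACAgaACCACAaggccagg
Of the 30 positions, 19 were identical in all 3 windows, with a longest identical run of 18 bases, and Runx1 and Runx2 were identical at 27. These numbers include the letters of the 2 copies, which the search made identical in every window. The pair was centred 26 bp after the nearest annotated TSS of Runx1, 16 bp before that of Runx2 and 134 bp before that of Runx3. Such a pair stood in 23 of all 28335 regions (0.08%), the 3 shown among them. It was also in the promoters (250 bases before to 50 after the first TSS) of 3 of 22284 protein-coding genes (0.01%), namely Runx1, Runx3 and Card6. The Runx2 pair fell outside that promoter window because the gene's first annotated TSS lies farther upstream. Since the search was chosen after these regions were seen, neither share tests whether the pair is particular to them. The letters describe the sequence and say nothing of which factor was bound there.

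The full CRE, TGACGTCA, stood within 100 bp of the centre of 1 of the 51 regions, beside 3.5% of all regions, which at this number is near the background. That region lay 2056 bp upstream of a P2 start of Runx2, in an intron, and its CRE was followed directly by the AP-1 letters TGAGTCA, read on the other strand. Its central 201 bases are shown because they hold the full CRE, and those of 1 region of Cbfb because it was the region of that gene found in both forskolin and neither vehicle library. Capitals mark the CRE letters (full, or the core TGACG), AP-1 letters and RUNX letters, on either strand, and all are printed on the plus strand of mm9.
Runx2 at -2056 bp, chr17:44875553-44875753: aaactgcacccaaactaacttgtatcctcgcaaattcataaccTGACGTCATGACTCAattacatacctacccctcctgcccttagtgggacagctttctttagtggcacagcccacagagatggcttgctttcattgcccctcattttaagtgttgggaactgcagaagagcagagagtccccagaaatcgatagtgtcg
Cbfb at -5952 bp, chr8:107688521-107688721: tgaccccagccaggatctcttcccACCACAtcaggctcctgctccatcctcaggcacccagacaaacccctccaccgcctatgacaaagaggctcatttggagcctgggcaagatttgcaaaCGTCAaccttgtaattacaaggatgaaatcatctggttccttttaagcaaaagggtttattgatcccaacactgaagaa
In the Runx2 region the full CRE began 57 bp to the left of the centre and the AP-1 letters 49 bp to the left. In the Cbfb region the CRE core began 22 bp to the right and 1 RUNX copy 76 bp to the left.

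The lists held 14686 and 10180 peaks for the vehicle libraries and 25566 and 19371 for the forskolin libraries. Each peak carries a score from the authors whose scale is not stated, so scores were used only as percentiles within a list, where 100 is the top. A missing peak means that the authors' caller did not list one, not that the site was free of phospho-CREB. If the smallest step between scores is worth 1 tag, forskolin library 2 was sequenced to 0.347 of the depth of forskolin library 1, while the vehicle libraries stood at 1.029 and 1.065 of it. On that reading, peaks were called at the 4 genes with as few as 25 tags in the vehicle libraries and 11 in forskolin library 2. No RNA was measured, so whether each gene was expressed in these cells was not tested, and the cell type could not be checked against marker expression.

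Regions called in both forskolin and neither vehicle library, here forskolin-only, made up 14 of the 51 regions (27.5%), beside 18.3% of all regions. None of the 51 was found in both vehicle and neither forskolin library. That class held 0.441% of all regions, so its absence among the 51 is near the background. A further 11 (21.6%) were called in all 4 libraries, beside 31.5% of all regions, 7 (13.7%) in both forskolin and 1 vehicle library, beside 12.1%, and 16 (31.4%) in 1 library alone, beside 30.2%. The last 2 shares are near the background. Of the 51 regions, 38 lay over 10 kb from a TSS of their gene and 6 within 1 kb. The shares of all regions were not matched for distance from a TSS, and the part of distance was not tested. By gene, Runx2 had 6 forskolin-only regions of 11, Runx3 4 of 13, Runx1 3 of 19 and Cbfb 1 of 8. Single libraries decide the order of the genes. Runx1 had 13 without forskolin replicate 2 and 5 without either vehicle replicate 1 or forskolin replicate 1, and Runx3 had 8 without vehicle replicate 1. Cbfb had 2 without either forskolin replicate, while Runx2 had 6 with each library left out. With equal lists Runx2 had 3, Runx1 2, and Runx3 and Cbfb 0. All 13 Runx3 regions were called in both forskolin libraries, beside 61.9% of all regions. Of the 19 Runx1 regions, 13 (68.4%) came from 1 library, beside 30.2% of all regions, and 10 (52.6%) from forskolin library 1, the longest list, beside 21.8%. The lists differ in length. With 10180 peaks from each list, 5 of 23 regions were forskolin-only (21.7%, beside 10% of all regions), and without forskolin replicate 2 there were 25 of 48 (52.1%, beside 42.4% of all regions). Without vehicle replicate 2, 17 regions were called in all of the other libraries. A forskolin-only region stood within 1 kb of a TSS of Runx1 and of Runx2, as it did for 3.1% of coding genes, and within 10 kb of Runx1, Runx2 and Cbfb, as for 8.86%.

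**Figure D1:**
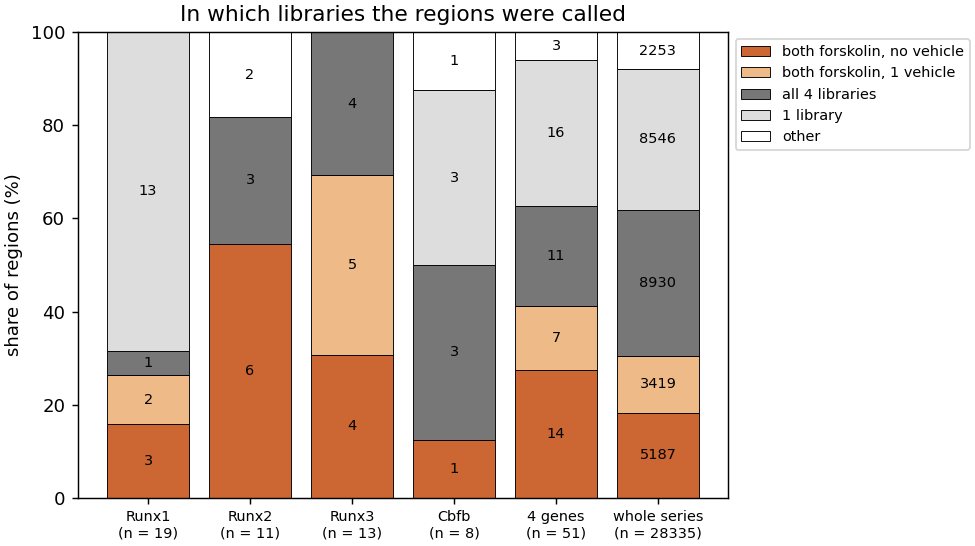
Share of regions (vertical axis, %) of each gene, of the 4 genes together and of the whole series by the libraries in which they were called, with the number of regions written in each block. Runx2 shows the forskolin-only block of 6 of 11 regions. Runx2 and Runx3 show no region of 1 library, and Runx1 shows 13 of 19 regions of 1 library.

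The number of peaks at the 4 genes was 22 and 12 in the vehicle libraries and 46 and 35 in the forskolin libraries. Per 10000 peaks of the list this was 14.98 and 11.79 against 17.99 and 18.07, so the treatments did not overlap. Their means of 13.38 ± 2.26 and 18.03 ± 0.05 (SD, n = 2 each) were 4.65 apart. An exact two-sided permutation test gave p = 0.333, the smallest value that 2 libraries against 2 allow, and 0.416 after Benjamini-Hochberg adjustment over 5 tests. Runx1 had 4 and 1 peaks under vehicle and 16 and 8 under forskolin, or 2.72 and 0.98 against 6.26 and 4.13 per 10000. Runx2 had 5 and 3 against 11 and 9 peaks, or 3.4 and 2.95 against 4.3 and 4.65 per 10000. Both genes thus had more peaks in each forskolin library even relative to the length of the list, with the same exact permutation p = 0.333. The share of coding genes with this order was not computed, so no background stands beside it, here or for the 4 genes together. At Runx1, 13 of the 19 regions came from 1 library. For Runx3 the 8 and 5 against 13 and 13 peaks came to 5.45 and 4.91 against 5.08 and 6.71 per 10000, and the treatments overlapped (exact permutation p = 0.667). Cbfb had 5 and 3 against 6 and 5 peaks. Relative to list length, the window of Cbfb was the 1 with fewer under forskolin (exact permutation p = 0.333). The values were 3.4 and 2.95 against 2.35 and 2.58 per 10000. Only 4 of the 8 Cbfb regions were nearest to its TSS, and none of those was called in all 4 libraries. The 3 regions that held the peaks of vehicle library 2 stood at promoters of other genes. Peaks of the 4 nearest regions alone were not compared.

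**Figure D2:**
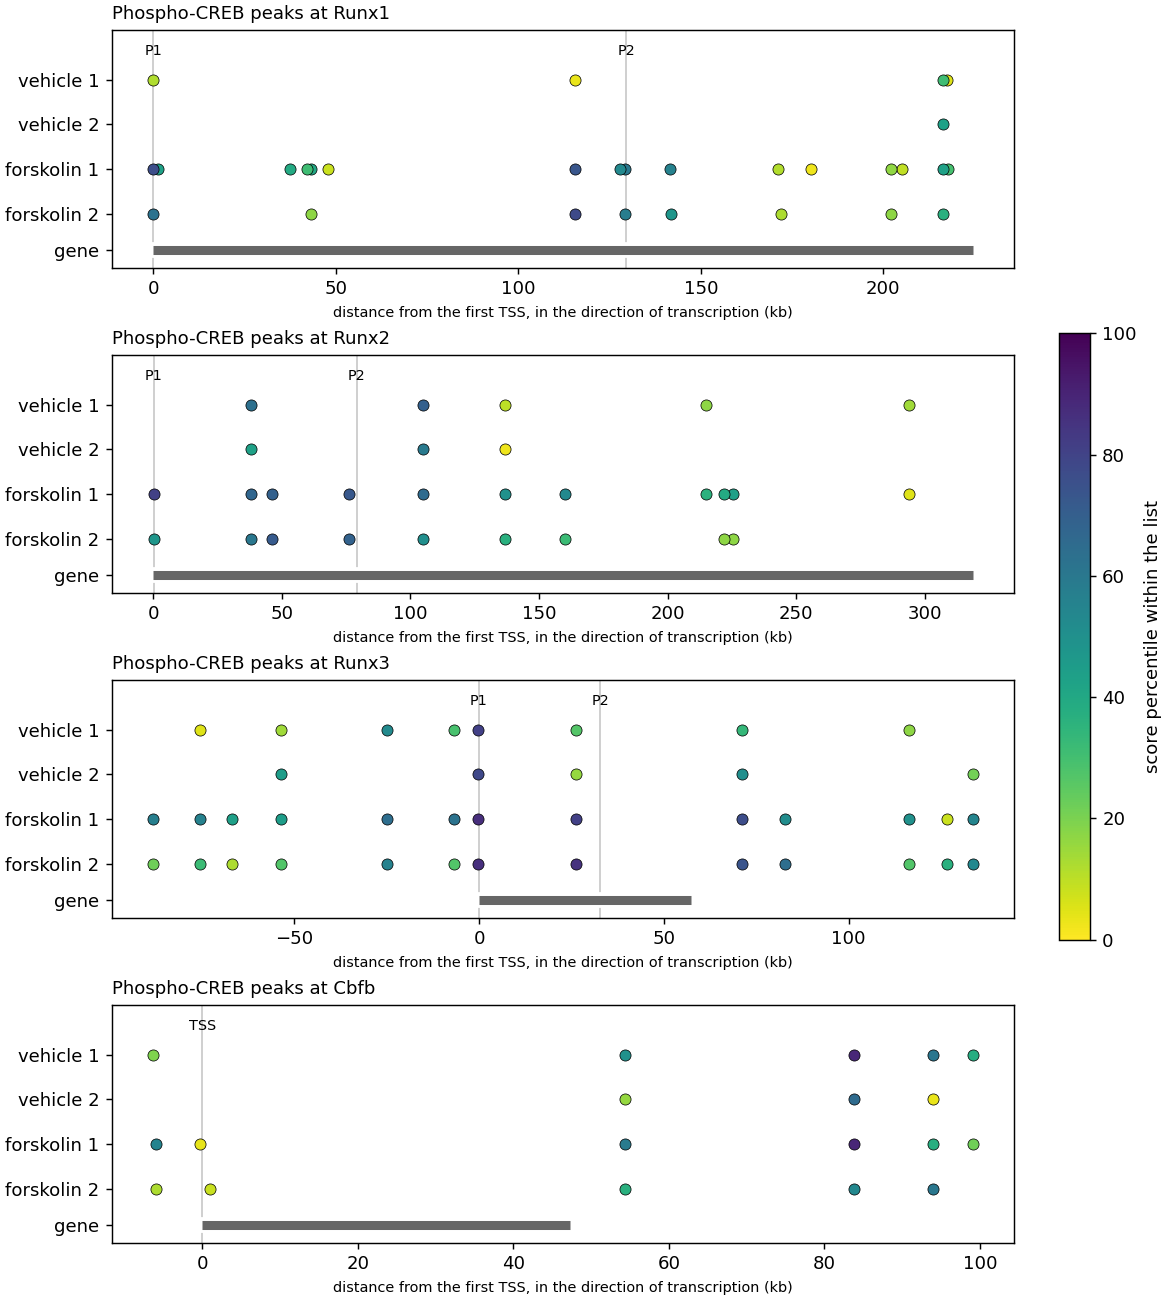
Position of each peak at the 4 genes, as distance in kb from the first TSS in the direction of transcription (horizontal axis), in each library (rows), coloured by its score percentile within the list, with the gene as a grey bar and the promoters as vertical lines. Runx1 and Runx2 peaks lie inside the genes, most Runx3 peaks lie on either side of the gene, and the Cbfb peaks stand near its TSS and over 50 kb downstream.

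Runx2, the factor that osteoblasts need in order to form, has 11 annotated TSS on chromosome 17 (44632936 to 44951746, minus strand). All 11 of its regions lay inside the gene, 10 in introns and 1 in an exon, and none was found in the 100 kb upstream of P1. The P1 region (44951346 to 44951836, exon, centred 15 bp before a TSS) was forskolin-only, with percentiles of 80.8 and 47.5 in forskolin libraries 1 and 2. The call was lost when peaks had to share 50% of the shorter one, or with the top 50% of each list. The region 2056 bp upstream of P2 (44875489 to 44875817), which holds the full CRE, had 73.0 and 69.0. Another forskolin-only region, 31939 bp upstream of P2 (44905381 to 44905691), had 69.3 and 71.8 and held a CRE core that began 3 bp from its centre. It lies in a Runx2 intron but 8565 bp from the nearest TSS of a coding gene, that of Supt3h, which encodes a subunit of a histone acetyltransferase complex and overlaps Runx2.

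The other forskolin-only regions of Runx2 ranked lower. They lay in introns 80127, 141871 and 145461 bp downstream of P2, with percentiles of 53.0, 39.4 and 43.7 in forskolin library 1 and 31.9, 17.1 and 17.1 in forskolin library 2. No region was found within 1 kb of a P2 start. The region of all 4 libraries with the highest minimum over the libraries (44846820 to 44847236, intron) had percentiles of 69.6 and 59.3 under vehicle and 65.3 and 50.5 under forskolin, which overlap. By rank from the top it was lower in both forskolin libraries, at 8803 and 9315 against 4409 and 4078 under vehicle. It stood 24614 bp downstream of P2 and 143 bp before the start of the noncoding transcript 9530072K05Rik. At 56816 bp downstream, a region of all 4 libraries had percentiles of 9.8 and 2.4 under vehicle and 49.9 and 36.4 under forskolin. Its ranks from the top of the list overlapped, at 13094 and 9889 against 12714 and 11926. The third region of this class had percentiles of 63.5 and 42.8 under vehicle and 67.2 and 60.4 under forskolin. By rank it was lower in both forskolin libraries, at 8338 and 7480 against 5289 and 5714 under vehicle. It ranked above the region at 56816 bp in both forskolin libraries and stood 208 bp before a TSS of Supt3h. So no region of Runx2 that was called in all 4 libraries lay at a promoter of Runx2 itself.

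Runx1, best known from blood formation, lies on chromosome 16 (92601712 to 92826311, minus strand). All 19 of its regions were inside the gene, 17 in introns and 2 in exons, at 5.75 regions per 100 kb of gene and window. Runx3 was next with 5.56, then Cbfb with 4.0 and Runx2 with 2.63, beside a median of 1.81 over all coding genes. Its P1 region (92826098 to 92826430, exon, 8 bp before a TSS) had a percentile of 12.1 in vehicle library 1, no peak in vehicle library 2, and 76.4 and 62.4 under forskolin. By this 1 low vehicle peak the P1 region of Runx1 was not counted as forskolin-only, as it was with the top 50% of each list and with lists of equal length. At P2, a forskolin-only region covered the exon 498 bp downstream of a TSS (92696810 to 92697341), with percentiles of 60.1 and 58.2. It was no longer in that class at 50% overlap or with equal lists. A second P2 region, 794 bp upstream (92698212 to 92698522, intron), was called in forskolin library 1 alone, at 53.0.

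The intronic region of Runx1 13101 bp upstream of P2 (92710498 to 92710850) had the highest percentile of the gene in forskolin library 2. It stood at 3.5 in vehicle library 1, was missing in vehicle library 2, and reached 73.3 and 77.4 under forskolin. The other forskolin-only regions lay in introns, 43282 bp downstream of P1 with 40.5 and 17.1, and 71606 bp downstream of P2 with 16.7 and 17.1. The 1 region called in all 4 libraries, 85993 bp downstream of P2 (92609625 to 92610179), had 31.1 and 42.8 under vehicle and 42.6 and 36.4 under forskolin. These percentiles overlap and lie in the lower part of all 4 lists, but by rank from the top it was lower in both forskolin libraries, at 14526 and 11926 against 9966 and 5714 under vehicle. With lists of equal length it was found in both vehicle and neither forskolin library. The single-library regions of Runx1 reached percentiles of up to 55.9. One pair of them, called in forskolin library 1 at 11130 bp and in forskolin library 2 at 11528 bp downstream of P2, did not share a base and so counted as separate regions, at 55.9 and 47.5.

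Runx3, a factor of T cells and neurons, lies on chromosome 4 (134676567 to 134733905, plus strand). Only 1 of its 13 regions lay inside the gene, and 9 were intergenic. Its P1 region (134676166 to 134676487, 240 bp before the TSS) ranked high in every library, at 81.0 and 78.2 under vehicle and 86.9 and 86.4 under forskolin. This region ends before the P1 start of Runx3 and covers the start of the noncoding transcript Gm16225. The region 5563 bp upstream of P2 (134702604 to 134703092, intron) moved most among the 11 regions of all 4 libraries, from 26.6 and 15.9 under vehicle to 81.2 and 85.6 under forskolin. A similar order held 37316 bp downstream of P2 (134747457 to 134747878, intergenic), with 33.3 and 50.6 against 76.7 and 74.2, though the ranks from the top overlapped here and at P1. In these 3 regions both forskolin percentiles were above both vehicle percentiles, while the fourth, 53618 bp upstream of P1, had 14.4 and 44.8 against 44.6 and 27.2 and overlapped.

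At P1, Runx3 was thus called in all 4 libraries and Runx2 under forskolin alone. As at Runx2, no region lay within 1 kb of a P2 start of Runx3. The 4 forskolin-only regions were distal. Those 88178 and 66864 bp upstream of P1 were intergenic, with percentiles of 57.2 and 43.7 in forskolin library 1 and 22.2 and 12.4 in forskolin library 2. The one 48972 bp downstream of P2 was intergenic too, with 51.5 and 64.3. The fourth, 92900 bp downstream, lay in an intron of Clic4, a chloride channel protein gene, with 8.0 and 36.4. The remaining 5 regions of Runx3 were called in both forskolin and 1 vehicle library, with percentiles of 49.9 to 64.4 in forskolin library 1, 27.2 to 55.9 in forskolin library 2 and 4.8 to 52.5 in the vehicle library that held them. At 6895 bp upstream of P1, forskolin library 2 (27.2) was below vehicle library 1 (29.0).

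Cbfb, the shared partner, lies on chromosome 8 (107694574 to 107741886, plus strand) and has 1 annotated TSS. Only 4 of its 8 regions had that TSS as the nearest of a coding gene. Near the promoter, a region 269 bp upstream (107694150 to 107694460, intergenic) was called in forskolin library 1 alone at a percentile of 3.8, and one 1042 bp downstream (intron) in forskolin library 2 alone at 8.5. Both are close to the bottom of their lists. Within 1 kb of the TSS there was no region common to the 4 libraries, where 30.3% of all coding genes had one. The forskolin-only region 5952 bp upstream (107688436 to 107688807, intergenic) had 55.2 and 12.4. It left that class when peaks within 500 bp were joined and with the top 50% of each list, and Cbfb then had 0 forskolin-only regions. A peak of vehicle library 1 at 6328 bp upstream, percentile 19.3, lay next to it without sharing a base.

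The 3 regions of all 4 libraries in the Cbfb window belonged to other promoters. They stood 48 bp from a TSS of D230025D16Rik, 718 bp from one of B3gnt9-ps and 17 bp from one of Fbxl8. The one with the highest minimum, at B3gnt9-ps (107778108 to 107778559, exon), had 89.0 and 65.6 under vehicle and 89.1 and 53.3 under forskolin. Its values overlapped between treatments, and the libraries numbered 1 were above those numbered 2 under both. The last region, at Hsf4, a heat shock factor gene, was called in the libraries numbered 1 only.

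**Figure D3:**
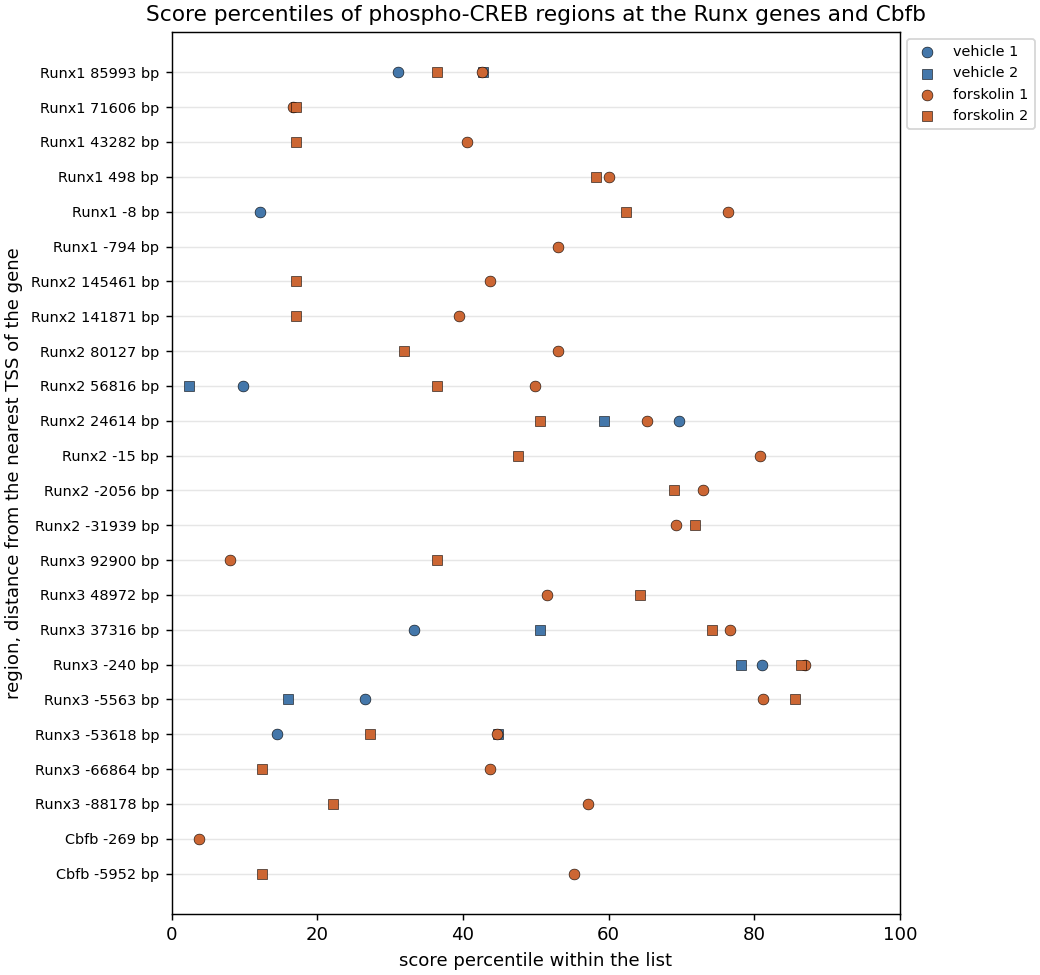
Score percentile within the list (horizontal axis, 100 is the top) of every region within 1 kb of a TSS of its gene, every forskolin-only region, and the regions of all 4 libraries nearest to their gene, labelled by distance in bp from the nearest TSS of the gene. Circles and squares are the libraries numbered 1 and 2, blue is vehicle and orange forskolin, and the widest gap between treatments is at Runx3 -5563 bp.

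Over the 11 regions of all 4 libraries, both forskolin percentiles were above both vehicle percentiles in 4 and below in none, with overlap in 7. Over all 8930 such regions the shares were 44.6% above and 2.51% below, so 4 of 11 (36.4%) is near the background. The median difference, forskolin minus vehicle, was 10.6 percentile points at the 4 genes (range -6.5 to 62.1) and 6.9 over the series. It was 22.9 without vehicle replicate 1, and it turned to -12.1 with the top 50% of each list (3 regions) and -24.0 with equal lists (5 regions). A region of fixed rank gains percentiles in a longer list, so ranks were compared too. By rank from the top, only the Runx3 region at -5563 bp was higher in both forskolin libraries, at rank 4785 and 2756 against 10597 and 8440 under vehicle, while 5 of the 11 were lower and 5 overlapped. The 5 lower ones were Runx1 at 85993 bp, Runx2 at 24614 and 37282 bp, Runx3 at -53618 bp and Cbfb at 54423 bp. Over the series, 11.1% were higher by rank and 52.0% lower.

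The 14 forskolin-only regions had median percentiles of 52.3 and 27.1 in forskolin libraries 1 and 2, beside 44.6 and 31.9 over all forskolin-only regions. At the estimated tag numbers they held 30 to 136 tags in forskolin library 1 and 12 to 32 in forskolin library 2. Both forskolin percentiles exceeded 50 in 4 of them: Runx1 at 498 bp, Runx2 at -2056 and -31939 bp, and Runx3 at 48972 bp. The P1 region of Runx2 was not among them, since it ranked high in forskolin library 1 and near the middle of forskolin library 2.

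AP-1 letters were most frequent at Runx1 and RUNX letters at Runx3, counted within 100 bp of the centre. AP-1 letters (TGAGTCA) were in 8 of 19 Runx1 regions (42.1%) and 3 of 11 Runx2 regions (27.3%), and in none of the 13 Runx3 or 8 Cbfb regions. They were in 13.8% of all regions and 21.8% of all forskolin-only regions. Of the Runx1 regions with AP-1 letters, only that at 498 bp was called in more than 1 library. The others had percentiles of 2.7 to 55.9 in the library that held them. RUNX letters (TGTGGT) were in 7 of 13 Runx3 regions (53.8%), 6 of 19 Runx1, 3 of 11 Runx2 and 1 of 8 Cbfb regions. They were in 24.2% of all regions and 33.4% of all forskolin-only regions. The CRE core (TGACG, which the full CRE contains) was in 4 Runx3, 2 Runx2, 1 Runx1 and 1 Cbfb regions, 8 of 51 in all (15.7%), beside 29.1% of all regions. Of the 14 forskolin-only regions 6 held the core (42.9%), beside 38.6% of all forskolin-only regions, and of the 11 regions of all 4 libraries 1 did (9.1%), beside 39.3%. The P1 regions of Runx1 and Runx2 each held 3 RUNX copies, a number or more found in 0.59% of all regions, and no CRE core. That of Runx3 held none of the letters in its central window, since its tandem pair lay beyond 100 bp from the centre. With 8 to 19 regions per gene these shares are descriptions, and neighbouring regions share sequence composition.

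**Figure D4:**
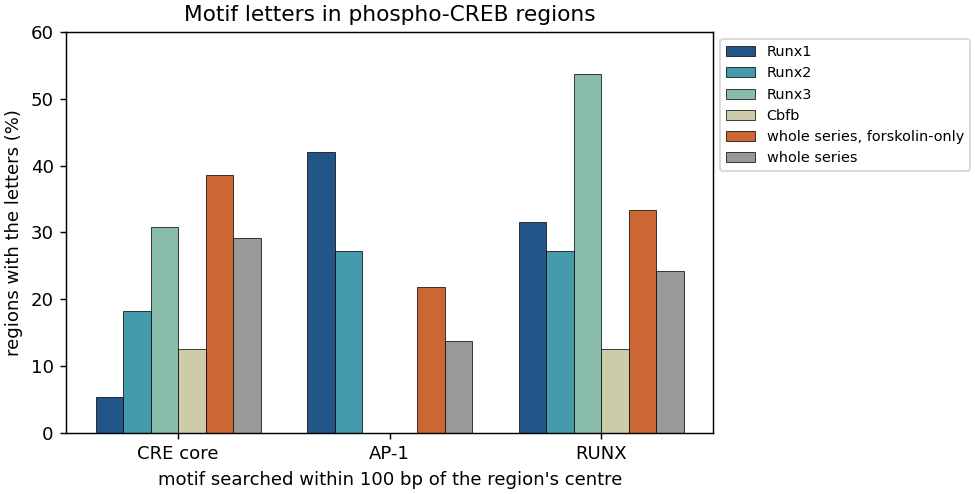
Share of regions (vertical axis, %) with the CRE core, AP-1 or RUNX letters within 100 bp of the centre, for each gene, for all forskolin-only regions and for all regions. Runx1 reaches 42.1% for AP-1 and Runx3 53.8% for RUNX, and AP-1 is at 0 for Runx3 and Cbfb.

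Among 47 annotated genes of co-regulators, homeobox regulators and bone targets of the Runx factors, 28 (59.6%) had a forskolin-only region inside or within 100 kb of a TSS, beside 40.0% of all coding genes. Within 10 kb there were 10 (21.3%), beside 8.86%, and with lists of equal length 12 at 100 kb (25.5%, beside 15.3%). By role they were Tle3 of the Groucho corepressors, the histone deacetylase Hdac3 and the zinc-finger repressor Zfp521, the coactivator Wwtr1 and the TGF-beta effector Smad3, the ubiquitin ligase Smurf1, the homeobox genes Dlx5 and Nkx3-2, and the bone genes Sp7 and Alpl. The highest-ranked was at Dlx5, an activator of Runx2 transcription, 2842 bp upstream with percentiles of 87.4 and 79.8. Wwtr1, which encodes the coactivator TAZ, had a forskolin-only region in its intron 1536 bp downstream (79.0 and 62.4). It also had a region of both vehicle and neither forskolin library 96 bp before a TSS (68.2 and 26.9), the 1 such region within 10 kb of a gene of the list.

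Regions of all 4 libraries lay within 1 kb of a TSS of 10 of the 47 genes (21.3%), beside 30.3% of all coding genes, of 3 of the 4 Groucho corepressors and 3 of 5 ubiquitin ligases, and of none of the 13 bone target genes or 5 homeobox regulators. Members with long genes or crowded surroundings have more regions, and the median over the list was 6 regions per gene against 4 over all coding genes, and the part of this in the counts was not tested.

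Genes most like each member were ranked by the likeness of their counts over the 15 possible call patterns (Bray-Curtis similarity, 1 is identical). The nearest to Runx1 was Syn3 (0.85, median over 17767 genes 0.26). Slk was nearest to Runx2 (0.86), followed by Ryk (0.83), then 0610037L13Rik and Tgfb2 (0.82 each). Hspg2, which encodes the matrix proteoglycan perlecan, was nearest to Runx3 (0.92). For Cbfb, 7 genes tied at 0.94, among them Atp6v0b and B4galt2. These 2 lie on chromosome 4 with the same numbers of regions, and whether tied genes share regions with each other was not checked. The counts are small and many genes share them.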

How the data were processed

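Phospho-CREB libraries of MC3T3-E1 cells (2 vehicle, 2 forskolin) were analysed from 1 peak list per library. The submitters' processing notes name Bowtie, HOMER and build mm9, without versions, and how peaks were thresholded is not given in the sources used. The deposited value per peak is a score from the authors in column 5, whose scale is not stated, so it was used as a percentile within its list (ties count at their middle). The tag numbers and the relative depth given rest on reading a score step as 1 tag, which is an assumption; classes and percentiles do not use it.

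Groups and replicate numbers came from the sample titles. Peaks were merged at 1 bp of overlap, genes were taken from NCBIM37 with GENCODE M1 (the build named mm9), and all 28335 regions fitted its 21 chromosomes. The 2 overlapping records named Runx2 were joined. A distance is that between the centre of a region and the nearest TSS of the gene. The 2 genes of the 49-gene list that were not annotated under the symbols used were left out. The per-library count was compared with an exact permutation test, and nothing else was tested. Merging and classes were tested on simulated lists. The software was Python 3.11.15 with matplotlib 3.10.9, numpy 2.4.6 and scipy 1.17.1. The members and lists were chosen with earlier results of these data known.

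Regions given in full were, by rule, those within 1 kb of a TSS of their gene, the forskolin-only and vehicle-only ones, and for each gene the region of all 4 libraries with the highest minimum of its 4 percentiles. The other regions named were chosen after their values were seen. They were Runx1 at -13101, 11130 and 11528 bp, Runx2 at 56816 and 37282 bp, and Runx3 at -5563, 37316, -53618 and -6895 bp. For Cbfb they were those at -6328, 1042, 54423, 93957 and 99150 bp. Alternatives were each library left out, the top 50% of each list, lists of equal length, an overlap of 50% of the shorter peak, peaks within 500 bp joined, windows of 10 and 50 kb, the replicate number as a block and, chosen after seeing the data, only regions nearest to the gene.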

Additional observations from a re-analysis of the deposited data

How the results depend on the processing

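Forskolin-only regions at the 4 genes numbered 14, and 15 to 25 with each library left out (25 without forskolin replicate 2, 20 without vehicle replicate 1, 17 without forskolin replicate 1), since this loosens the rule. There were 8 with the top 50% of each list, 5 with equal lists of 10180 peaks and 4 with a 10 kb window. The share was above that of all regions under each of these (21.7% against 10% with equal lists). Of the 14 regions, which leaving out a library cannot remove by construction, 4 remained with the top 50% and 3 with equal lists (Runx2 at -15, -2056 and -31939 bp), where 9 had no region left and the Runx1 region at 85993 bp became vehicle-only. At 50% overlap 12 remained (not Runx1 at 498 bp or Runx2 at -15 bp), and 13 with peaks within 500 bp joined (not Cbfb at -5952 bp). Regions of all 4 libraries numbered 11, and 11 to 17 with each library left out (17 without vehicle replicate 2), 3 with the top 50%, 5 with equal lists, 7 at 50% overlap, 2 at 10 kb, 7 at 50 kb and 7 when only regions nearest to the gene counted. Their median percentile difference of 10.6 ran from 6.8 to 22.9 with each library left out (22.9 without vehicle replicate 1) and was 34.6 at 10 kb (2 regions). It reversed to -12.1 with the top 50% (3 regions) and -24.0 with equal lists (5 regions); the cause was not tested. Genes of the Runx list with a forskolin-only region numbered 28, 29 to 38 with each library left out, 12 with equal lists (25.5% against 15.3%) and 10 at 10 kb.

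The difference of 4.65 peaks per 10000 ran from 3.05 to 6.24 with each library left out, was 8.72 with the top 50% of each list and 1.79 at 10 kb, and kept its direction under every setting run. With the replicate number as a block it was 4.65 with exact p = 0.5, the smallest that 2 pairs allow. The labels do not say that a number marks a shared culture or day, so the samples share only a number. Over the alternatives to the unblocked test the exact p ran from 0.333 to 0.667. The part of sequencing depth in the missing calls was not tested. With 2 libraries per treatment the unblocked test cannot reach 0.05.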
